A study of Mus musculus with 5 samples.

Results

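The E11.5 distal forelimb of mouse embryos lacking HOX13 function was compared with that of wild-type embryos, from 4 of the 5 RNA libraries of the study: every library of distal forelimb at E11.5, 2 per genotype. The mutant embryos were Hoxa13-/-;Hoxd13-/-, homozygous for a Hoxa13 allele with a neomycin cassette inserted in the coding region and for a Hoxd13 allele with a lacZ reporter in the first exon. Both genotypes had the same strain label, a mixed C57BL/6 and CD1 background, and the same stage and dissection. For each genotype, RNA came from 2 independent pools of micro-dissected tissue. The labels give N=4 for the samples without saying whether this is per pool or per genotype. The share of each strain in the pools was not tested. The remaining library, E10.5 forelimb bud, was not used.

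HOXA13 and HOXD13 are homeodomain transcription factors made in the mesenchyme of the distal limb bud, where the digits form, and the series title asks what HOX13 activity does there. Mouse limbs without both genes are known to fail to form digits. Such a factor can change a tissue through other transcription factors, through the signals its cells send and receive, and through the matrix and metabolism of the cells. The genes were therefore read by function in 5 classes (transcription factors, secreted factors, receptors and other membrane proteins, extracellular matrix, and metabolic genes) after setting aside the Hox clusters, the hedgehog, FGF, BMP, WNT, retinoic acid and Notch pathways, and the glycolysis and hypoxia genes. The classes were built from gene names, so a few genes sit with a family only by name.

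The libraries held 45092378 to 59807512 reads in genes, and 18265 to 18408 genes had a count in each. Levels are given as CPM, the count of a gene scaled to its library's total in genes and by TMM (a factor per library that removes differences in composition), always with mutant replicates 1 and 2 before wild-type replicates 1 and 2. A log2 change is the fitted log2 of mutant over wild type, with its standard error (SE), and a value in brackets without a name is such a change. The words rose and fell, and called for either, are kept for genes where the quasi-likelihood test of edgeR gave an adjusted p below 0.05 over all genes tested. Of the targeted genes, Hoxd13 measured 47.6 and 39.7 CPM in the mutant libraries and 244 and 252 in wild type (log2 change -2.50, SE 0.10, edgeR adjusted p = 1.1e-07). Evx2, the homeobox neighbour of Hoxd13, measured 0.434 and 0.494 CPM in the mutant against 11.1 and 10.2 (-4.52), and Jag1, a Notch ligand, 48.0 and 41.1 CPM in the mutant against 176 and 164 (-1.93). All 3 were low in both mutant libraries, as their labels say. Hoxa13 had a log2 fold change of -0.17 (edgeR adjusted p = 0.438). Reads elsewhere in the transcript of an insertion allele can remain, so that value checks nothing.

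Markers of other tissues were summed per library. Those of limb bud mesenchyme came to 2064 and 2025 CPM in the mutant and 1961 and 1936 in wild type, which shows the labelled tissue in all 4 libraries. Of these 10 genes Prrx1 rose and Prrx2, Msx1, Twist1, Lhx9 and Hand2 fell. Without mutant replicate 2 the edgeR adjusted p was 0.294 for Prrx2, 0.108 for Twist1, 0.238 for Lhx9 and 0.189 for Hand2, and without mutant replicate 1 it was 0.063 for Prrx2. Macrophage markers came to 123 and 116 CPM against 78.3 and 97.9, with 3 of 17 genes tested risen (Lyz2, Mrc1 and F13a1), and erythroid markers to 3084 and 3024 against 2478 and 2476, where Hbb-bh1 rose and Beta-s fell among 10 tested. Muscle markers came to 169 and 219 against 233 and 272, with Actc1 alone of 18 fallen. Neuron and Schwann cell markers came to 162 and 155 against 177 and 181, with Gap43 risen and Tubb3 and Stmn2 fallen of 16. Endothelial markers came to 495 and 455 against 418 and 447, with Flt1 and Gpr116 risen and Erg fallen of 18. Surface ectoderm markers came to 451 and 472 against 468 and 483, with Fgf8 risen and Krt14, Krt8 and Sp6 fallen of 20. The calls of Krt14, Krt8, Flt1 and Gpr116 ended without mutant replicate 1 (edgeR adjusted p = 0.317, 0.0899, 0.344 and 0.384 in that order). The groups did not overlap in any of these sums except that of surface ectoderm, and in bulk tissue fewer cells of a type and less RNA per cell cannot be told apart. The part of these shifts in the changes described below was not tested.

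Across 16160 genes tested, 616 rose (3.81%) and 539 fell (3.34%) in the mutant, 7.15% in all, and 2.75% changed at least 2-fold. The median log2 fold change of all genes was 0.00. Among 976 transcription factors outside the pathways set aside, 44 rose and 44 fell (9.02%), with a median log2 fold change of -0.01. Of 321 secreted factors 24 rose and 23 fell (14.6%, median 0.05), and of 383 matrix genes 30 rose and 25 fell (14.4%, median 0.04). Of 1092 receptors and membrane proteins 62 rose and 49 fell (10.2%, median 0.04), and of 1262 metabolic genes 50 rose and 48 fell (7.77%, median -0.02). The metabolic share was thus close to that of all genes, those of secreted factors and matrix genes were about double it, and every class was near balance between risen and fallen genes. Genes of no class, 11840 in number, were at 5.82%, and the 286 genes of the Hox clusters and pathways set aside at 23.4%. The share of called genes that changed at least 2-fold was 57.4% among secreted factors and 57.7% among receptors. It was 36.4% among transcription factors, 34.5% among matrix genes, 38.8% among metabolic genes and 38.5% among all genes. The median level of genes tested was 3.08 CPM for secreted factors and 3.26 for receptors. For transcription factors it was 17.45, for matrix genes 9.9, for metabolic genes 20.0 and for all genes 18.2. The part of these levels in the 2-fold shares was not tested. The 399 genes of the 5 classes that were called had non-overlapping groups, a property of 48.9% of all genes tested. Non-overlap therefore holds for every called gene of these classes named below, and adds nothing to a call where it is mentioned. Of those 399 calls, 205 held when any 1 library was left out and 194 were lost at least once. The numbers of genes called were set by single libraries as well: over all genes, 410 rose and 385 fell without mutant replicate 1, and 1101 and 870 without wild-type replicate 1. Of the class counts, the 44 fallen factors were 21 without mutant replicate 2, the 30 risen matrix genes were 19 without mutant replicate 1 and 62 without wild-type replicate 1, and the 48 fallen metabolic genes were 89 without wild-type replicate 1.

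**Figure D1:**
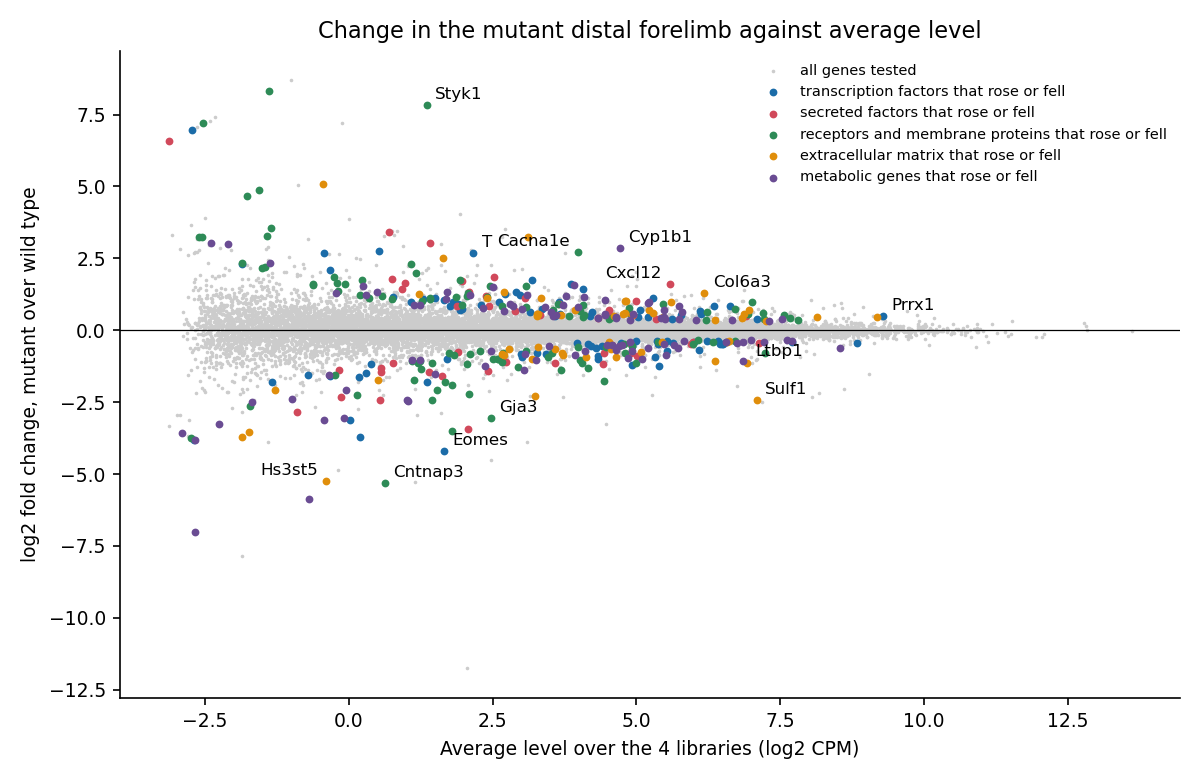
Each point is 1 of the 16160 genes tested, with its average level over the 4 libraries (log2 CPM) on the horizontal axis and its log2 fold change, mutant over wild type, on the vertical axis; coloured points are the 399 genes of the 5 classes that rose or fell. Coloured points lie on both sides of 0 at all levels, and coloured points beyond 6 in size belong to genes with 0 to 2 reads in one genotype, whose fitted values are no measure of size.

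**Figure D2:**
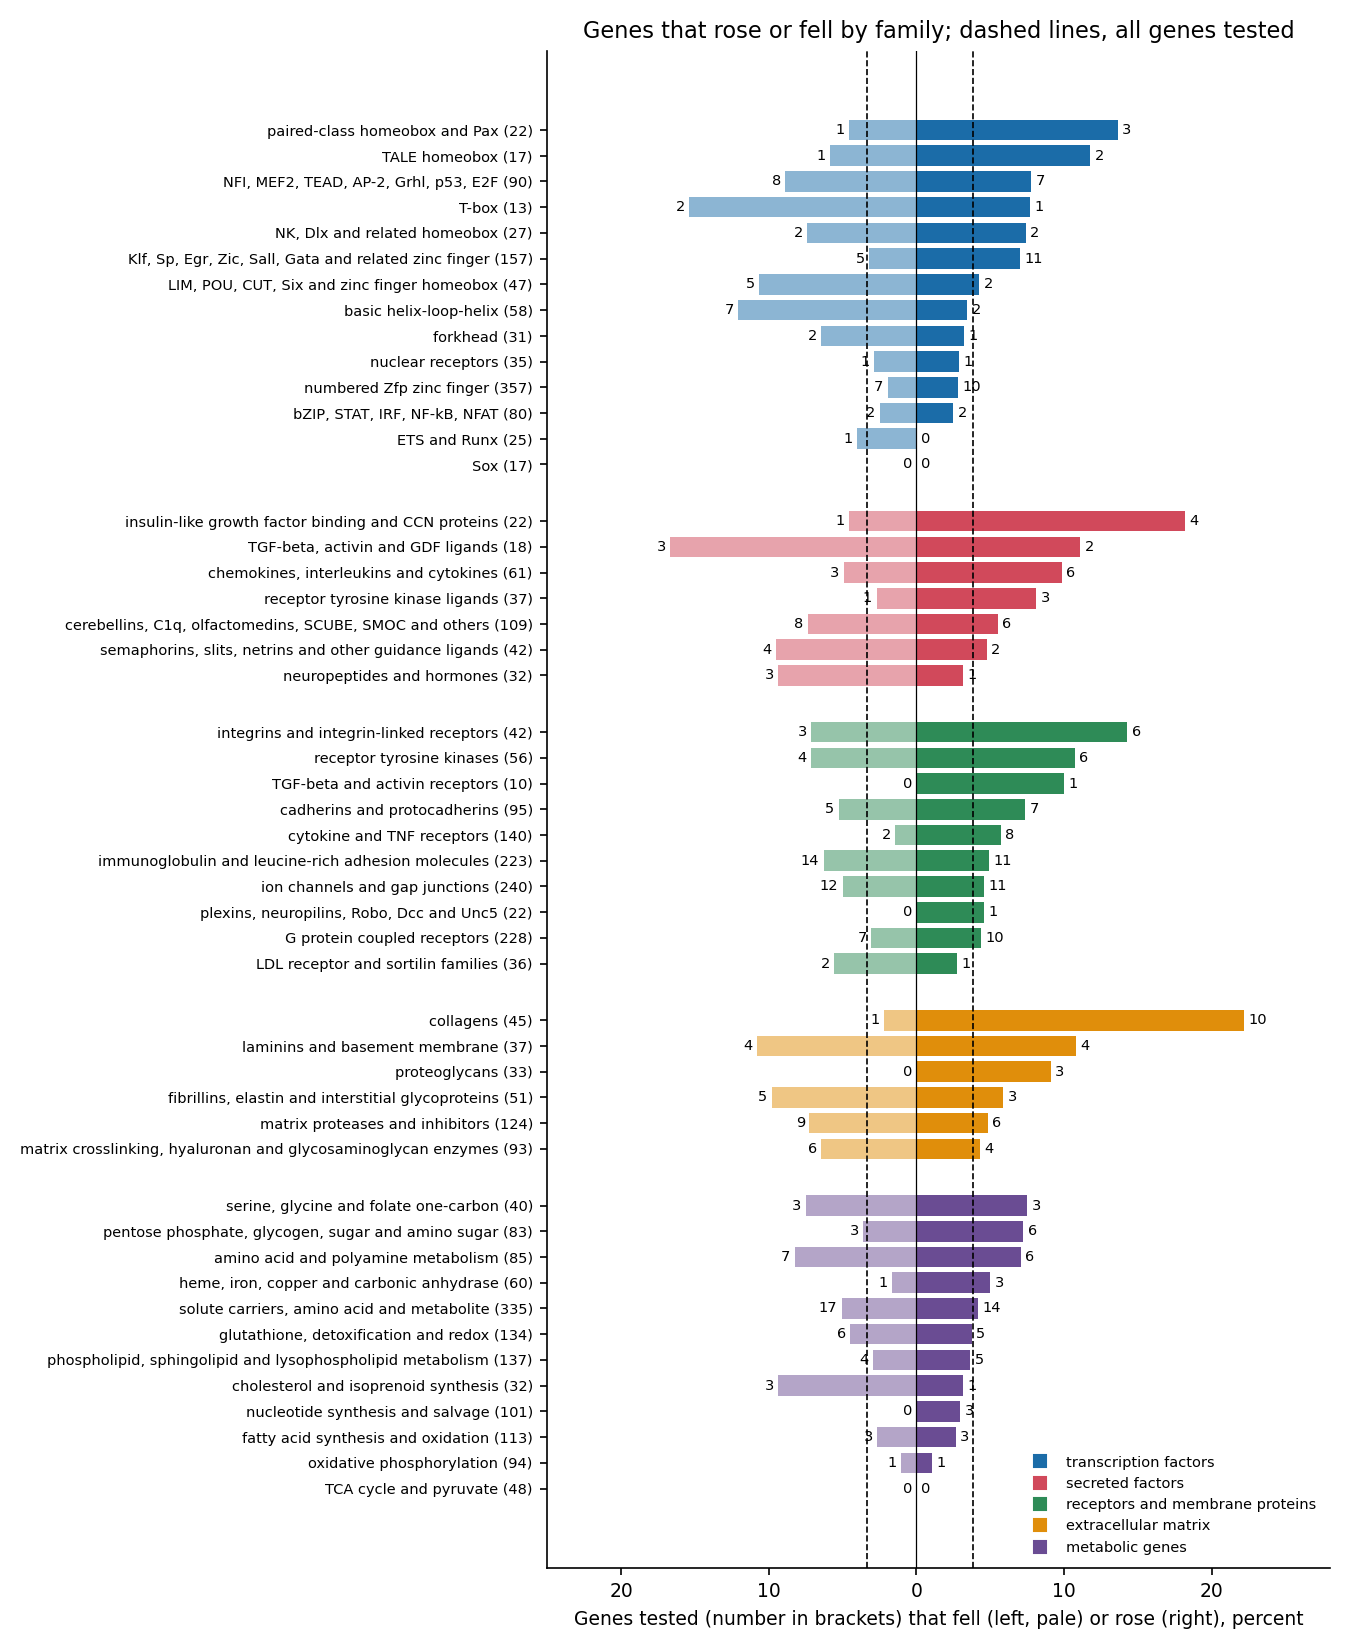
Bars give, for each family, the percentage of genes tested that rose (right) or fell (left, pale) in the mutant; the number tested stands in brackets, the number called beside each bar, and the dashed lines mark the 3.81% risen and 3.34% fallen among all genes tested. Collagens have the longest bar on the right (10 of 45), and the Sox and TCA cycle families have no bar.

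Among transcription factors with at least 1 CPM in the higher genotype, the steepest falls were those of 3 genes with little signal left in the mutant. Eomes, a T-box factor best known from early mesoderm and the cerebral cortex, measured 0.317 and 0.329 CPM in the mutant libraries and 4.33 and 7.68 in wild type (log2 change -4.21, SE 0.34, edgeR adjusted p = 1.65e-05). Nkx3-2, a homeobox factor of cartilage, measured 0.267 and 0.0411 CPM in the mutant libraries and 1.64 and 2.64 in wild type (log2 change -3.70, SE 0.53, edgeR adjusted p = 0.000958; -5.62 without mutant replicate 1). Irx1, an Iroquois homeobox factor made in the forming digits, measured 0.250 and 0.165 CPM in the mutant libraries and 1.73 and 1.93 in wild type (log2 change -3.10, SE 0.38, edgeR adjusted p = 0.000344). Every mutant library lay below both wild-type libraries by at least 6-fold for these 3 genes. Tfeb, a regulator of lysosome genes, fell (1.22 and 1.09 CPM in the mutant against 4.11 and 3.87 CPM in wild type, log2 fold change -1.78), as did Esr1, the estrogen receptor alpha gene (0.550 and 0.555 CPM in the mutant against 1.66 and 1.74, -1.62). Zfp42, known as a marker of pluripotent cells, measured 0.484 and 0.309 CPM in the mutant against 1.09 and 1.30 (-1.58). Its call ended without mutant replicate 2 (edgeR adjusted p = 0.161) or wild-type replicate 2 (0.0864).

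At the same minimum level, the factors that rose furthest are best known outside the distal limb. T (Brachyury), the T-box factor of the primitive streak and notochord, measured 7.86 and 7.65 CPM in the mutant libraries and 1.12 and 1.30 in wild type (log2 change 2.67, SE 0.21, edgeR adjusted p = 1.06e-05). Gbx2, a homeobox factor of the mid-hindbrain border, measured 2.94 and 2.10 CPM in the mutant libraries and 0.263 and 0.477 in wild type (log2 change 2.74, SE 0.36, edgeR adjusted p = 0.000536). Pou4f1, a factor of sensory neurons, measured 1.60 and 0.967 CPM in the mutant against 0.131 and 0.257 (2.69), while the summed neuron and Schwann cell markers were lower in the mutant. Gata6, known from endoderm, heart and the proximal anterior limb bud, measured 1.23 and 1.36 CPM in the mutant against 0.416 and 0.202 (2.09). Ebf2, a helix-loop-helix factor of mesenchyme and fat precursors, measured 23.2 and 20.9 CPM in the mutant libraries and 4.64 and 9.78 in wild type (log2 change 1.60, SE 0.25, edgeR adjusted p = 0.00169). Zfp708, a zinc finger gene, measured 13.6 and 14.4 CPM in the mutant against 3.87 and 4.55 (1.73), and near-identical zinc finger genes make such values uncertain. Both mutant libraries were above both wild-type libraries for each of these 6 genes, and the wild-type replicates stood apart for Ebf2, Gata6, Pou4f1 and Gbx2. Foxs1, a forkhead gene, had 32 counts in the mutant and 0 in wild type, at least 9.85-fold higher against a floor of 3 counts over the group.

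**Figure D3:**
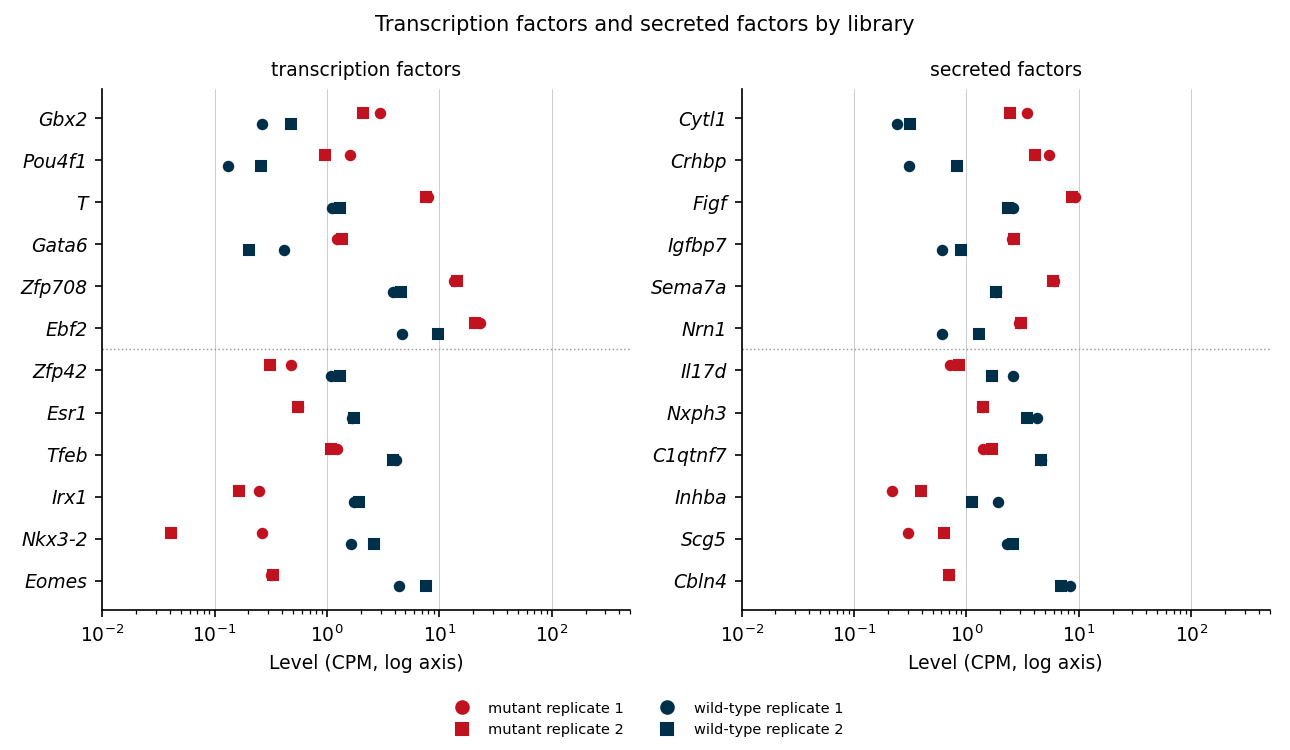
Level in each library (CPM, log axis) of the 6 risen and 6 fallen genes with the largest log2 fold changes among genes with at least 1 CPM in the higher genotype, for transcription factors (left) and secreted factors (right); risen genes lie above the dotted line, circles are replicate 1 and squares replicate 2 of the mutant (red) and wild type (dark blue). The colours do not overlap for any of the 24 genes, and the gap is widest for Eomes and Cbln4 among genes that fell.

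By family, homeobox factors outside the Hox clusters split evenly, with 9 risen and 9 fallen of 113 tested (15.9%). Fewer fell without mutant replicate 2. Prrx1, a paired-class factor of the whole limb mesenchyme, rose from 520.1 to 730.2 CPM (log2 change 0.49, SE 0.09, edgeR adjusted p = 0.0042), and it was the called factor with the most reads. Its relative Prrx2 had -0.39 (edgeR adjusted p = 0.0238; 0.063 and 0.294 without mutant replicates 1 and 2). Lhx9, a LIM factor of the distal limb, had -0.42 (edgeR adjusted p = 0.0144; 0.238 without mutant replicate 2). Prrx1 and Prrx2 thus moved in opposite directions, and the call of Prrx2 needed both mutant libraries.

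Basic helix-loop-helix factors leaned downwards, with 7 fallen and 2 risen of 58 tested (15.5%). The fallen were 3 without mutant replicate 2 and 11 without wild-type replicate 1. The risen were Ebf2 and Bhlhe40, a clock-linked repressor (1.09; edgeR adjusted p = 0.288 without mutant replicate 1). Tcf4, an E protein, was the fallen one with the most reads (381 and 398 CPM in the mutant against 543 and 510.5, -0.44), and its call ended without mutant replicate 1 (edgeR adjusted p = 0.16) or 2 (0.0701). The group that holds the Klf, Sp, Zic, Sall and Gata zinc finger genes had 11 risen and 5 fallen of 157 (10.2%). It includes factors of other kinds placed there by name, Dach1 and Eya4 among them. Its median log2 fold change was -0.01, with 18 up and 19 down at an unadjusted p below 0.05. The risen were 7 without mutant replicate 1 and 17 without wild-type replicate 1, and the counts were 11 and 11 with wild-type replicate 2 left out. Zic2, a zinc finger factor of the neural tube and limb, measured 60.9 and 46.3 CPM in the mutant libraries and 24.1 and 25.4 in wild type (log2 change 1.12, SE 0.13, edgeR adjusted p = 0.000202). Its relative Zic5 rose with it (1.33), as did Sall3 (1.42) and Sall1 (0.84), spalt factors of the limb, and Klf9 (1.27). The 5 that fell were Dach1 (28.6 and 27.1 CPM in the mutant against 55.3 and 49.7, -0.92), Sp6, a factor of the ectodermal ridge (-0.81), Prdm16 (-0.71), Bcl11a (-0.68) and Eya4 (-0.63; -0.42 and edgeR adjusted p = 0.206 without mutant replicate 1). Bhlhe40, Zic5, Sall1, Sall3, Klf9, Sp6, Prdm16, Bcl11a and Eya4 were picked out after their values were seen.

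Of the remaining factor families, T-box, forkhead, Sox, nuclear receptor, and ETS and Runx factors were counted with the bZIP, STAT, IRF, NF-kB and NFAT group. Together they had 5 risen and 8 fallen of 201 (6.47%), below the 7.15% of all genes. Both counts changed when single libraries were left out. The risen were T, Foxs1, Nr2f2 (COUP-TFII, 0.53), Tef, a clock-output factor (0.47; edgeR adjusted p = 0.169 without mutant replicate 1), and Stat4 (0.92; 0.228 without mutant replicate 1), the last picked out after its value was seen. Erg, an ETS factor of endothelium and cartilage, had -0.54 (edgeR adjusted p = 0.075 without mutant replicate 2), while the summed endothelial markers, Erg among them, were higher in the mutant. Stat3 had -0.47 (0.15 without mutant replicate 2), and Foxp1 -0.43 (0.0851 and 0.117 without mutant replicates 1 and 2). None of 17 Sox factors, which include the cartilage regulators, passed the edgeR test or DESeq2, with 3 up and 0 down at an unadjusted p below 0.05 and a median log2 fold change of 0.19. When either wild-type library was left out, 1 Sox factor rose. Numbered Zfp genes, 357 in all, had 10 risen and 7 fallen (4.76%), below the share of all genes (18 and 13 without wild-type replicate 1, 6 and 3 without mutant replicate 2); Zfp458 had -0.93. Cofactors and small families (NFI, MEF2, TEAD, AP-2, E2F and others) had 7 risen and 8 fallen of 90 tested, 16.7% (4 and 3 without mutant replicate 2, 4 risen without mutant replicate 1, 11 risen without wild-type replicate 1). Of these, Lmo7, a LIM domain protein of cell junctions and the nucleus, measured 25.4 and 24.4 CPM in the mutant libraries and 61.1 and 56.4 in wild type (log2 change -1.24, SE 0.10, edgeR adjusted p = 1.26e-05). Aff3, of a transcription elongation complex, measured 133 and 121 CPM in the mutant libraries and 72.8 and 69.6 in wild type (log2 change 0.83, SE 0.09, edgeR adjusted p = 0.000146), and the libraries of a genotype lay close together for both genes.

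Secreted factors changed in both directions within most groups of ligands. The signalling ligands and hormones had 14 risen and 14 fallen of 190 tested (14.7%). Binding proteins and other secreted proteins had 10 and 9 of 131 (14.5%). Cxcl12, a chemokine that guides migrating cells, measured 75.5 and 69.3 CPM in the mutant libraries and 21.7 and 26.1 in wild type (log2 change 1.60, SE 0.11, edgeR adjusted p = 4.24e-06). The muscle markers, whose precursors migrate into the limb, summed lower in the mutant. Tgfb2, a TGF-beta ligand, measured 42.9 and 42.5 CPM in the mutant libraries and 22.0 and 20.3 in wild type (log2 change 1.01, SE 0.10, edgeR adjusted p = 8.23e-05). Inhba, which encodes the subunit of activin A, moved the other way at 0.217 and 0.391 CPM in the mutant libraries and 1.90 and 1.12 in wild type (log2 change -2.32, SE 0.43, edgeR adjusted p = 0.00614), and so did Gdf10, another member of the superfamily (3.12 and 2.61 CPM in the mutant against 8.03 and 7.52, -1.44). The ligands of the TGF-beta superfamily outside the BMP list thus held both clear rises and clear falls. Lefty1, an inhibitor of Nodal in the same family, had 25 counts in the mutant and 0 in wild type, at least 7.69-fold higher against the floor of 3 counts (edgeR adjusted p = 0.0758 without wild-type replicate 2; picked out after its value was seen). Figf, which encodes the lymphatic growth factor VEGF-D, measured 9.34 and 8.70 CPM in the mutant libraries and 2.60 and 2.37 in wild type (log2 change 1.86, SE 0.18, edgeR adjusted p = 6.41e-05), while Pdgfc, a ligand of PDGF receptor alpha, had -0.40 (edgeR adjusted p = 0.168 and 0.112 without mutant replicates 1 and 2).

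Cytl1, a small cytokine-like protein of cartilage, measured 3.49 and 2.45 CPM in the mutant libraries and 0.241 and 0.312 in wild type (log2 change 3.41, SE 0.35, edgeR adjusted p = 9.25e-05). Crhbp, which binds corticotropin-releasing hormone, measured 5.39 and 4.11 CPM in the mutant libraries and 0.306 and 0.825 in wild type (log2 change 3.03, SE 0.36, edgeR adjusted p = 0.000257). Cytl1 and Crhbp were counted with the signalling ligands and hormones. Insulin-like growth factor binding proteins moved apart, with Igfbp7 at 2.55 and 2.63 CPM in the mutant against 0.613 and 0.899 (1.76) and Igfbp2 rising from 98.5 to 140.4 CPM (0.51; edgeR adjusted p = 0.0746 without mutant replicate 1). Igfbp5 had -0.44 (0.154 without mutant replicate 2, and -0.28 in log2 without wild-type replicate 1). The genotypes did not overlap for any of these 3 genes. Nell2, an EGF-repeat protein, rose (1.13), and Olfml2a, an olfactomedin-domain protein, from 3.21 to 7.30 CPM (1.18).

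Secreted proteins best known from the nervous system stood on both sides. Cbln4, a cerebellin that organises synapses, measured 0.701 and 0.699 CPM in the mutant libraries and 8.40 and 6.97 in wild type (log2 change -3.45, SE 0.23, edgeR adjusted p = 2.89e-06), the steepest fall in the class. Scg5, a chaperone of a prohormone convertase, measured 0.300 and 0.638 CPM in the mutant against 2.30 and 2.62 (-2.42), and Nxph3, a neurexophilin, 1.38 and 1.42 CPM in the mutant against 4.27 and 3.48 (-1.46). Sema7a, a membrane-anchored semaphorin, rose at 6.04 and 5.92 CPM in the mutant against 1.84 and 1.85 (1.70), and Nrn1, neuritin, at 2.94 and 3.06 CPM in the mutant against 0.613 and 1.28 (1.64), whereas Sema3c, a secreted guidance cue, fell from 37.9 to 22.0 CPM (-0.79). No mutant library reached into the wild-type range for these 6 genes. Of the C1q family, C1qtnf7 had 1.40 and 1.69 CPM in the mutant against 4.57 and 4.64 (-1.58) and Fam132a, the adipokine adipolin, fell from 16.5 to 7.46 CPM (-1.14). Il17d, an interleukin, measured 0.717 and 0.864 CPM in the mutant against 2.60 and 1.71 (-1.44; edgeR adjusted p = 0.0595 without wild-type replicate 1).

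Some receptors and membrane proteins differed more than 10-fold between the genotypes. Styk1, which encodes a membrane kinase-like protein, had 550 counts in the mutant libraries and 2 in those of wild type, 254-fold more after scaling (exact 95% interval 69.9 to 2100, counting error only). Cntnap3, a contactin-associated adhesion protein, measured 0.0667 and 0.0823 CPM in the mutant libraries and 2.91 and 3.14 in wild type (log2 change -5.31, SE 0.39, edgeR adjusted p = 7.5e-06). Cldn13, a claudin, had 83 counts in the mutant and 0 in wild type, at least 25.5-fold higher against the floor of 3 counts (picked out after its value was seen). Sorcs1, a sortilin-family sorting receptor, measured 0.484 and 0.658 CPM in the mutant libraries and 6.28 and 6.47 in wild type (log2 change -3.49, SE 0.25, edgeR adjusted p = 5.04e-06). The genotypes did not overlap for any of these 4 genes, and all but Sorcs1 had 8 reads or fewer in the lower genotype.

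Ion channels and gap junction genes had 11 risen and 12 fallen of 240 tested (9.58%). Both counts were higher when either wild-type library was left out. Cacna1e, the pore of R-type calcium channels, measured 27.3 and 27.6 CPM in the mutant libraries and 4.22 and 4.16 in wild type (log2 change 2.71, SE 0.13, edgeR adjusted p = 1.89e-07). Gja3, a connexin best known in the lens, measured 1.30 and 1.07 CPM in the mutant libraries and 10.4 and 9.39 in wild type (log2 change -3.05, SE 0.20, edgeR adjusted p = 2.89e-06). Kcnd2, the Kv4.2 potassium channel, fell at 0.617 and 1.09 CPM in the mutant against 5.14 and 4.02 (-2.44), and Scn11a, a sodium channel of pain-sensing neurons, at 1.50 and 1.48 CPM in the mutant against 7.83 and 6.14 (-2.22). For Cacna1e the libraries of a genotype differed by less than 2%, against a more than 6-fold gap between genotypes. G protein coupled receptors had 10 risen and 7 fallen of 228, at 7.46% close to all genes (5 risen without mutant replicate 1, 16 without wild-type replicate 1). Rxfp3, the relaxin-3 receptor, measured 5.75 and 6.05 CPM in the mutant libraries and 0.788 and 2.64 in wild type (log2 change 1.76, SE 0.37, edgeR adjusted p = 0.014), and wild-type libraries were far apart (DESeq2 adjusted p = 0.197), so that leaving out wild-type replicate 1 gave 1.16 and leaving out wild-type replicate 2 gave 2.90. Calcrl, the receptor for adrenomedullin and calcitonin gene-related peptide in vessels, rose from 21.5 to 36.9 CPM (0.78). Endothelial markers summed to 495 and 455 CPM in the mutant against 418 and 447, with 2 risen and 1 fallen of 18. Prokr2, a prokineticin receptor, fell at 1.58 and 1.36 CPM in the mutant against 5.45 and 5.54 (-1.90).

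Adhesion molecules of the immunoglobulin and leucine-rich families had 11 risen and 14 fallen of 223 (11.2%). More rose without wild-type replicate 1, and both counts were lower without mutant replicate 1. Lrrn3, a leucine-rich neuronal protein, measured 10.3 and 9.57 CPM in the mutant libraries and 31.1 and 35.8 in wild type (log2 change -1.75, SE 0.12, edgeR adjusted p = 3.74e-06), and Lrig1, a brake on growth factor receptors, 133 and 129 CPM in the mutant libraries and 82.0 and 75.6 in wild type (log2 change 0.74, SE 0.09, edgeR adjusted p = 0.000287). Cldn10, a claudin, fell at 0.350 and 0.411 CPM in the mutant against 1.62 and 2.04 (-2.27), and Igsf3 had 0.41 (edgeR adjusted p = 0.0488; 0.368 without mutant replicate 1 and 0.0885 without wild-type replicate 2). Neo1, the receptor of netrins and repulsive guidance molecules, had 0.34 (0.29 and 0.158 without mutant replicates 1 and 2). Of 95 cadherins and protocadherins 12 passed (12.6%), and more passed without wild-type replicate 1. Cdh22 rose at 4.32 and 2.76 CPM in the mutant against 0.744 and 0.697 (2.30) and Pcdh15, of the tip links of hair cells, at 3.50 and 3.72 CPM in the mutant against 0.810 and 1.01 (1.98). Cdh3, the P-cadherin of ectoderm, fell from 192 to 111 CPM (log2 change -0.79, SE 0.09, edgeR adjusted p = 0.000285). Among 20 surface ectoderm markers, Krt14, Krt8 and Sp6 fell and Fgf8 rose. These markers summed to 451 and 472 CPM in the mutant against 468 and 483 in wild type.

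Integrins and linked receptors had 9 called of 42 tested (21.4%), a count that includes Itgb3bp, a centromere protein placed there by its name. Itgav, the alpha-v subunit that binds fibronectin and vitronectin, rose from 154 to 223 CPM (log2 change 0.53, SE 0.09, edgeR adjusted p = 0.00279), whereas Itga11, a subunit of a collagen receptor, fell at 7.54 and 6.81 CPM in the mutant against 19.8 and 17.2 (log2 change -1.37, SE 0.14, edgeR adjusted p = 8.99e-05). Sspn and Sgcz, of the sarcoglycan complex, rose (1.52 and 1.85). Muscle markers summed lower in the mutant. Receptor tyrosine kinases and neurotrophin receptors had 10 called of 56 (17.9%). Among them was the fall of Ngfr, the p75 neurotrophin receptor of Schwann cells and mesenchyme. It measured 9.41 and 11.1 CPM in the mutant libraries and 27.7 and 23.4 in wild type (log2 change -1.32, SE 0.13, edgeR adjusted p = 9.71e-05). Cytokine and TNF receptors had 10 called of 140, at 7.14% the share of all genes, with 8 risen (4 without mutant replicate 1) and 2 fallen (0 without mutant replicate 2). Il11ra1, the interleukin-11 receptor, whose loss affects skull and teeth, measured 57.1 and 58.2 CPM in the mutant libraries and 28.5 and 32.4 in wild type (log2 change 0.92, SE 0.10, edgeR adjusted p = 0.000147). The 2 that fell were Il1r2, a decoy receptor (-2.62; edgeR adjusted p = 0.0935 without mutant replicate 2 and 0.197 without wild-type replicate 1), and Cntfr (-1.15; 0.176 and 0.0821 in the same order; picked out after its value was seen). Ifngr2, an interferon-gamma receptor chain, was grouped elsewhere by its name and is not among these 2, but it fell too. Its call ended when either mutant library was left out (-0.49 without replicate 1, -0.38 without replicate 2). Leaving out wild-type replicate 2 also ended it (-0.35). Tgfbr3, the co-receptor betaglycan, rose from 24.2 to 35.6 CPM (0.56). Mrc1, the mannose receptor of macrophages, had 0.62 (0.37 when wild-type replicate 1 was left out, 0.93 when the other was). It is itself among the macrophage markers that summed higher in the mutant.

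In the matrix, more collagens rose than fell. Of 45 collagens tested 10 rose and 1 fell (24.4%), with a median log2 fold change of 0.07 over the family and 29 of 45 above 0. Without wild-type replicate 1, 18 rose, and without wild-type replicate 2, 6 fell. Col6a5 and Col6a3 encode chains of collagen VI, the beaded filaments around cells. Col6a3 measured 104 and 102 CPM in the mutant libraries and 50.4 and 34.2 in wild type (log2 change 1.28, SE 0.15, edgeR adjusted p = 0.000202), and Col6a5 13.6 and 17.7 CPM in the mutant libraries and 1.97 and 1.38 in wild type (log2 change 3.23, SE 0.21, edgeR adjusted p = 2.67e-06). Col6a1, a further chain, rose from 28.5 to 46.1 CPM (0.70). Both mutant libraries exceeded both wild-type libraries for all 3, by the least for Col6a1. The chains of fibrillar collagen I moved with them: Col1a2 measured 706 and 649 CPM in the mutant against 532 and 443 (0.48; edgeR adjusted p = 0.133 without mutant replicate 1), and Col1a1 rose from 18.5 to 37.3 CPM (1.02; 0.67 in log2 without wild-type replicate 2). Col9a1, of cartilage, had 0.45 (edgeR adjusted p = 0.0548 without mutant replicate 1, and 0.27 in log2 without wild-type replicate 1), Emid2 (collagen XXVI) 0.31 (0.343, 0.216 and 0.0536 without mutant replicates 1 and 2 and wild-type replicate 2) and Col16a1 0.49 (0.104 and 0.0609 without mutant replicate 1 and wild-type replicate 2). Col8a2 (1.10) and Col25a1 (0.69) completed the 10, and the collagen that fell was Col8a1, the partner chain of Col8a2, at 8.09 and 10.4 CPM in the mutant against 18.6 and 15.4 (-0.88). Col6a1, Col1a1, Col16a1, Col8a2 and Col25a1 were picked out after their values were seen.

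Enzymes that crosslink the matrix or make its sugars had 6 fallen and 4 risen of 93 tested (10.8%). Fewer rose without mutant replicate 1 and more without wild-type replicate 1. Sulf1, which removes 6-O-sulfate from heparan sulfate outside the cell and so alters how growth factors bind, measured 39.3 and 46.2 CPM in the mutant libraries and 218 and 244 in wild type (log2 change -2.44, SE 0.11, edgeR adjusted p = 1.2e-07). Hs3st5, a heparan sulfate 3-O-sulfotransferase, measured 0.0334 and 0.0411 CPM in the mutant libraries and 1.31 and 1.67 in wild type (log2 change -5.25, SE 0.53, edgeR adjusted p = 9.25e-05), on 4 reads in the mutant libraries together. Ndst4, which starts the sulfation of the chain, fell at 0.601 and 0.720 CPM in the mutant against 2.12 and 2.27 (-1.74). Has2, the hyaluronan synthase of limb mesenchyme, measured 52.6 and 54.6 CPM in the mutant libraries and 114 and 111 in wild type (log2 change -1.07, SE 0.09, edgeR adjusted p = 1.7e-05). All 4 of these genes were lower in both mutant libraries than in either wild-type library. Of those that rose, Hpse2, a heparanase relative without known enzyme activity, measured 67.1 and 62.5 CPM in the mutant libraries and 29.2 and 36.0 in wild type (log2 change 0.99, SE 0.11, edgeR adjusted p = 0.000201). The other 3 were Tgm2, a transglutaminase (1.12), P4ha2, a prolyl hydroxylase subunit (0.57; 0.35 and edgeR adjusted p = 0.311 without mutant replicate 1), and Leprel2, which modifies collagen prolines (0.37; 0.275 and 0.0835 without mutant replicates 1 and 2), all picked out after their values were seen. Gpc5, a glypican that carries heparan sulfate, rose at 5.59 and 5.06 CPM in the mutant libraries and 0.853 and 0.990 in wild type (log2 change 2.52, SE 0.23, edgeR adjusted p = 4.69e-05).

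Among structural glycoproteins, Ltbp1, which holds latent TGF-beta in the matrix, measured 77.6 and 74.4 CPM in the mutant libraries and 176 and 156 in wild type (log2 change -1.13, SE 0.09, edgeR adjusted p = 1.56e-05), opposite in direction to Tgfb2. Mfap3l, which is grouped with the microfibril proteins by name only, measured 3.12 and 3.25 CPM in the mutant libraries and 14.7 and 16.4 in wild type (log2 change -2.29, SE 0.15, edgeR adjusted p = 3.06e-06). Vwf, the clotting glycoprotein of endothelium, rose at 10.9 and 7.55 CPM in the mutant against 4.97 and 2.48 (1.32), beside endothelial markers of 495 and 455 CPM against 418 and 447. In basement membranes, Fbln2 rose from 94.0 to 139.9 CPM (0.57; edgeR adjusted p = 0.0559 without mutant replicate 1) and Lama1, a laminin chain of early epithelia, fell at 26.5 and 23.2 CPM in the mutant against 50.0 and 34.8 (-0.77; -0.49 without wild-type replicate 1). Matrix proteases and their inhibitors had 6 risen and 9 fallen of 124 (12.1%), with more risen when wild-type replicate 1 was left out. Ctse, cathepsin E, measured 1.62 and 1.23 CPM in the mutant against 0.0875 and 0 (5.07 as fitted, on 4 reads in wild type; 9.28 without wild-type replicate 1, when wild type has none). Adamtsl2, a microfibril-associated protein without protease activity, rose from 18.8 to 38.0 CPM (log2 change 1.02, SE 0.10, edgeR adjusted p = 8.23e-05), and Adamts5, an aggrecan- and versican-cutting protease, fell at 12.3 and 11.8 CPM in the mutant against 22.7 and 23.4 (log2 change -0.94, SE 0.11, edgeR adjusted p = 0.00035).

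**Figure D4:**
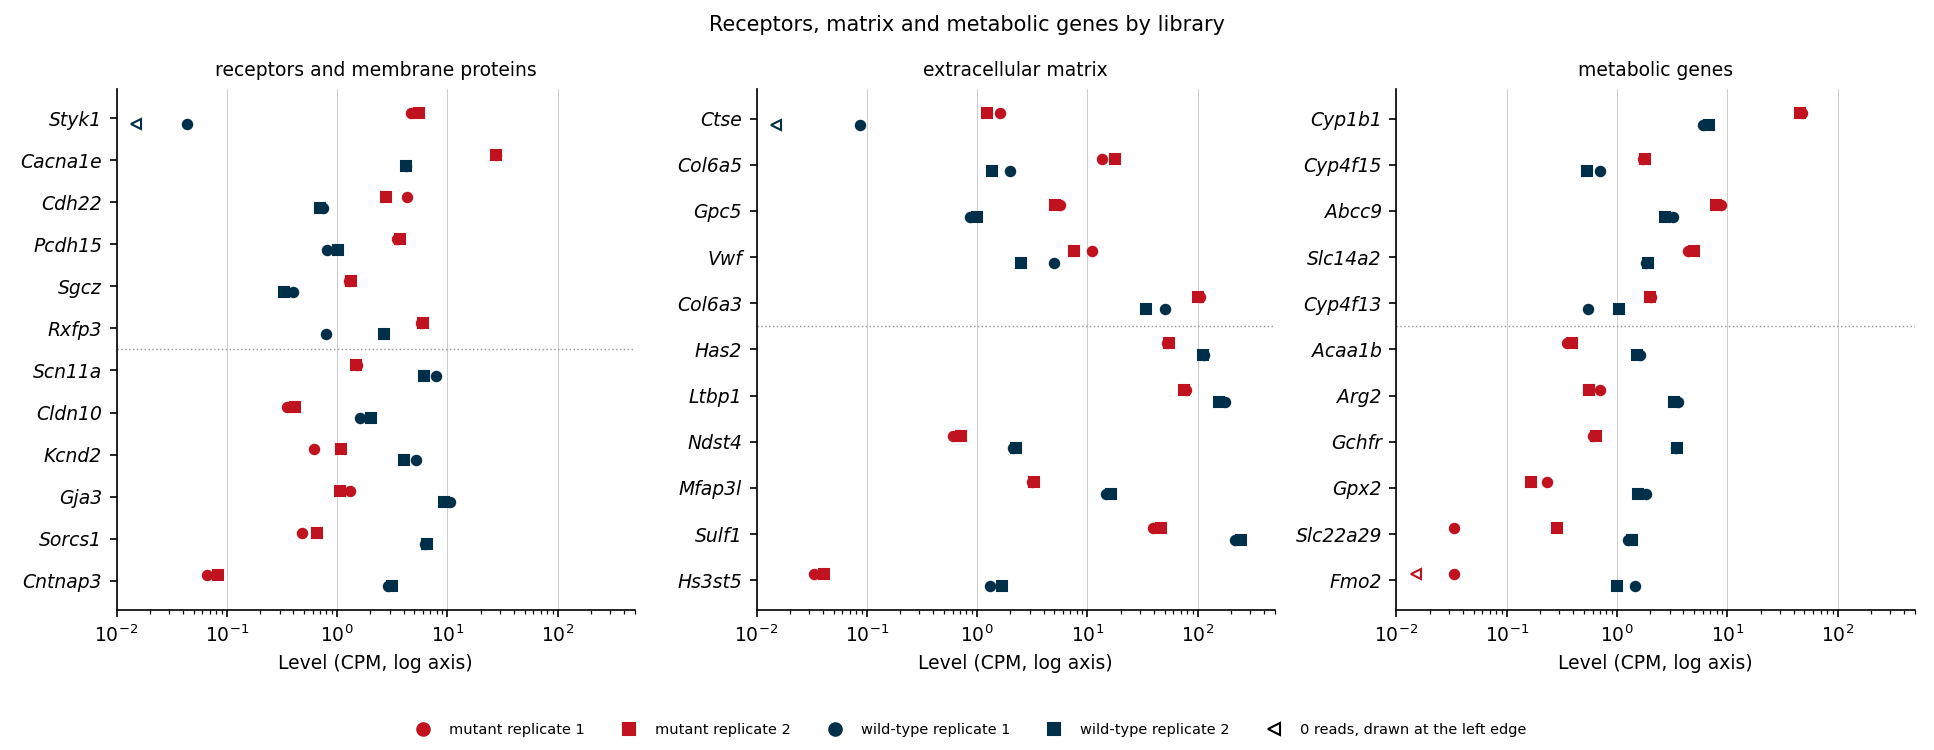
Level in each library (CPM, log axis) of 5 or 6 risen and 6 fallen genes with the largest log2 fold changes among genes with at least 1 CPM in the higher genotype, for receptors and membrane proteins, matrix genes and metabolic genes; symbols are as in the plot of factors by library, and open triangles are libraries with 0 reads, drawn at the left edge. Sulf1, Ltbp1, Has2 and Col6a3 change at levels above 30 CPM, whereas Ctse, Hs3st5 and Fmo2 rest on few reads in one genotype.

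Oxidative phosphorylation and the TCA cycle had few called genes. Glycolysis was among the lists set aside and is not counted here. Of 94 genes of oxidative phosphorylation 2 passed (2.13%), namely Ndufb8, a subunit of complex I (-0.40; edgeR adjusted p = 0.194 and 0.0564 without mutant replicates 1 and 2), and Atp5s, a factor of ATP synthase (0.66; 0.147 and 0.115). Without wild-type replicate 1, 5 rose and 7 fell. Of 48 genes of the TCA cycle and pyruvate use none passed edgeR, with 1 up and 6 down at an unadjusted p below 0.05, 1 down by DESeq2, and 5 down without wild-type replicate 1. The median log2 fold changes were 0.00 and -0.07, with 47 of 94 and 33 of 48 genes below 0 in that order. Nucleotide synthesis and salvage had 3 risen and 0 fallen of 101 (2.97%), below the 7.15% of all genes. At an unadjusted p below 0.05, 10 were up and 9 down. DESeq2 gave 1 fallen, and the counts changed when single wild-type libraries were left out. Those that rose included Dpyd, which breaks down pyrimidines (17.9 and 20.4 CPM in the mutant against 7.50 and 9.17, 1.20). The purine phosphorylase Pnp (0.65) and Entpd6 (0.54) also rose, both picked out after their values were seen. All 3 act in breakdown or salvage, and 3 genes do not describe the family.

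Larger changes of single genes lay in side branches. Pgd, an enzyme of the pentose phosphate pathway that yields NADPH, measured 78.0 and 73.0 CPM in the mutant libraries and 149.5 and 164 in wild type (log2 change -1.06, SE 0.09, edgeR adjusted p = 2.48e-05). In the methionine cycle and serine and glycine metabolism 6 of 40 genes passed (2 without either mutant replicate, 9 without wild-type replicate 1). Ahcy, which clears S-adenosylhomocysteine after methylation reactions, measured 291 and 298 CPM in the mutant libraries and 417 and 480.2 in wild type (log2 change -0.61, SE 0.09, edgeR adjusted p = 0.00164). Gldc, of the glycine cleavage system, rose at 50.8 and 46.7 CPM in the mutant libraries and 23.8 and 26.2 in wild type (log2 change 0.96, SE 0.10, edgeR adjusted p = 0.000133), and Phgdh, the first enzyme of serine synthesis, had -0.37 (edgeR adjusted p = 0.263, 0.112 and 0.0723 without mutant replicates 1 and 2 and wild-type replicate 2). Enzymes of amino acids and polyamines had 6 risen and 7 fallen of 85 (15.3%), with fewer risen when either mutant replicate was left out. Arg2, mitochondrial arginase, measured 0.701 and 0.555 CPM in the mutant libraries and 3.54 and 3.27 in wild type (log2 change -2.42, SE 0.27, edgeR adjusted p = 0.000198), and Gchfr, the feedback regulator of GTP cyclohydrolase, 0.601 and 0.638 CPM in the mutant libraries and 3.39 and 3.50 in wild type (log2 change -2.48, SE 0.27, edgeR adjusted p = 0.000143). Ddah1, which degrades methylated arginines, rose from 9.34 to 17.2 CPM (0.88). Arg2 and Gchfr fell more than 4-fold, while Ddah1 rose less than 2-fold.

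Genes of detoxification and redox balance stood on both sides, with 5 risen and 6 fallen of 134 tested. That share, 8.21%, was near the 7.15% of all genes. Cyp1b1, a cytochrome P450 that acts on estrogens and retinoids, measured 47.3 and 45.3 CPM in the mutant libraries and 6.06 and 6.77 in wild type (log2 change 2.85, SE 0.12, edgeR adjusted p = 1.1e-07), the clearest rise in the class. Gpx2, a glutathione peroxidase, measured 0.234 and 0.165 CPM in the mutant against 1.84 and 1.56 (-3.06), and Gstp1, a glutathione transferase with a near-identical copy, fell from 38.4 to 19.5 CPM (-0.98). Slc7a11, the cystine importer that supplies glutathione synthesis, fell from 63.9 to 41.8 CPM (log2 change -0.62, SE 0.10, edgeR adjusted p = 0.00199). Fmo2, a flavin monooxygenase, had 2 counts in the mutant and 120 in wild type, 65.0-fold lower with an exact 95% interval of 17.6 to 543. The P450 genes Cyp4f15 (1.53) and Cyp4f13 (1.31; edgeR adjusted p = 0.0578 without mutant replicate 1 and 0.0761 without wild-type replicate 1) are close copies and uncertain. Alad, of heme synthesis, fell from 59.2 to 32.3 CPM (-0.87) while erythroid markers summed higher in the mutant, and Car8, a carbonic anhydrase relative, rose (1.22).

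Lipid genes and transporters moved singly. Fatty acid genes had 3 risen and 3 fallen of 113 (5.31%), and phospholipid, sphingolipid and lysophospholipid genes 5 and 4 of 137 (6.57%). Both shares were below the 7.15% of all genes. Enpp2 (autotaxin), which makes lysophosphatidic acid, rose at 31.1 and 28.2 CPM in the mutant libraries and 13.1 and 15.3 in wild type (log2 change 1.06, SE 0.12, edgeR adjusted p = 0.000208), and its relative Enpp4 fell from 12.9 to 6.25 CPM (-1.04). Crat, carnitine acetyltransferase, fell at 24.7 and 20.6 CPM in the mutant libraries and 45.8 and 45.6 in wild type (log2 change -1.01, SE 0.11, edgeR adjusted p = 0.00016). Of the thiolase copies, Acaa1b fell (-2.07) and Acaa1a had 0.55 (edgeR adjusted p = 0.0586 without mutant replicate 2), and reads shared between them make both uncertain. In sterol synthesis and use, 3 of 32 genes fell (9.38%, against 3.34% of all genes), and fewer fell when either mutant replicate was left out. Among them were Dhcr7, the last step to cholesterol (13.2 and 12.8 CPM in the mutant against 21.4 and 21.3, -0.71), and Acat2 (-0.35). The call of Acat2 ended without mutant replicate 1, mutant replicate 2 or wild-type replicate 2. Cyp27a1, which oxidises cholesterol, had 0.53, and its call ended without mutant replicate 1 or 2. Adpgk, an ADP-dependent glucokinase outside the glycolysis list, rose from 33.7 to 55.1 CPM (0.71). Transporters had 14 risen and 17 fallen of 335 (9.25%). Fewer rose without mutant replicate 1, and fewer fell without mutant replicate 2. Abcc9, the sulfonylurea receptor of smooth muscle and pericytes, rose from 2.96 to 8.39 CPM (1.51), Slc14a2, a urea transporter, from 1.86 to 4.70 CPM (1.33), and Slc22a29, an organic anion transporter, fell at 0.0334 and 0.288 CPM in the mutant against 1.27 and 1.38 (-3.11; -5.21 without mutant replicate 2).

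Called genes were also counted around the targeted loci, in the order of a RefSeq gene table, beside 7.15% of all genes tested. Among the 50 tested neighbours on each side of Hoxd13, 13 of 87 genes outside the Hox clusters and pathways were called (14.9%), and 9.55% of the next 100 on each side. Around Hoxa13 the shares were 8 of 86 (9.3%) and 2.54%. The differences between these shares were not tested. Genes described above that lie among the nearest neighbours of Hoxd13 are Itgav and Calcrl. Chromosome 2, which carries Hoxd13, had 9.62% of its genes called, chromosome 6, which carries Hoxa13, 9.93%, and the highest share was 9.95% on chromosome 13. The part of strain origin in these flanks was not tested.

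Promoters were searched for 2 octamers that HOX13 proteins are known to bind, CCAATAAA and CTCGTAAA, on both strands of the window from 250 bases before to 50 after each gene start in the RefSeq promoters of GRCm38.p6. The first overlaps the CCAAT box and the AATAAA signal in its letters. Either octamer was present in 0.854% of 15682 promoters of 12417 tested genes, in 5 of 581 promoters of risen genes (0.861%) and in 5 of 547 of fallen genes (0.914%). The share in promoters of changed genes was thus close to that of all. The 250 upstream bases of 2 called genes of the 5 classes that held one are shown as examples. They are given in the direction of transcription with the octamer in capitals. The choice did not cover every chromosome, so other called genes of these classes may hold one too. Galt, an enzyme of galactose use, lies on the plus strand (chr4:41755267-41755516), and Timp4, an inhibitor of matrix metalloproteinases, on the minus strand (chr6:115252206-115252455).
Galt: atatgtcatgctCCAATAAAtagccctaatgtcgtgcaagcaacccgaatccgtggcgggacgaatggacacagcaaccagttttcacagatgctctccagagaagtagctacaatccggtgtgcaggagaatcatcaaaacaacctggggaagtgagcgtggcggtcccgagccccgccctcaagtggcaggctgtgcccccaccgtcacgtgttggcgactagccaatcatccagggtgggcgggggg
Timp4: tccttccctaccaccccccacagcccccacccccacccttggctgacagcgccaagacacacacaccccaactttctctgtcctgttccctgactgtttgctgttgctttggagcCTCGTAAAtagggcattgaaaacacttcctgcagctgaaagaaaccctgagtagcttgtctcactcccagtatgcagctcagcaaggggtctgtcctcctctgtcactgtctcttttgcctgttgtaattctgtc
The octamer starts 238 bases before the gene start in Galt and 135 before it in Timp4. Timp4 measured 0.0334 and 0.0411 CPM in the mutant libraries and 0.569 and 0.459 in wild type (log2 change -3.71, SE 0.66, edgeR adjusted p = 0.00472), on 4 reads in the mutant. Galt had 19.3 and 17.8 CPM in the mutant against 24.1 and 28.6 (-0.51; edgeR adjusted p = 0.0241; 0.137 without mutant replicate 2 and 0.0708 without wild-type replicate 2). Both mutant libraries were below both wild-type libraries for these genes, which were picked out by their promoters, and a match of letters in this window is a description and not evidence of binding.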

How the data were processed

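Strand-specific paired-end libraries were made from RNA depleted of ribosomal RNA, per the labels' protocols. The authors deposited raw read counts by gene symbol, in the layout that HTSeq writes. The submitters' processing notes name TopHat2 2.0.13, Cufflinks 2.1.1, HTSeq, SAMtools and mm9. The strand setting and annotation of the counting are not given in the sources used here, so overlapping and antisense genes are uncertain. From 23284 symbols, 16 Y-linked genes and 5 total lines were left out. Reads in no feature were 30.3% to 39.6% of the lines' sum. Pools were treated as replicates, with n = 2 per genotype.

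Low counts were removed by filterByExpr (count minimum 10, total minimum 15). After TMM scaling, genotype was the only term of the quasi-likelihood test in edgeR 4.0.16 (R 4.3.3). Benjamini-Hochberg adjustment ran over all 16160 genes. Alternatives were DESeq2 1.42.0 with its scaling, library size alone, other filters and estimates, a replicate block, Y-linked genes kept, and leaving out each library.

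The classes and families came from patterns of gene names. They, the comparison and the gene lists were chosen with earlier results of these data known. Named genes are, per class, the 6 risen and 6 fallen with the largest log2 fold change and at least 1 CPM in the higher group, per family the risen and fallen gene with the smallest adjusted p, and per class the 3 called genes with the highest CPM; some genes that this rule names are not reported here. Of the 23268 symbols kept, 20670 matched a current RefSeq name of GRCm38.p6 and 2381 an older one; that table gave names, gene order and promoters only. Its build differs from mm9. The floor for a group at 0 is 3 counts.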

Additional observations from a re-analysis of the deposited data

How the results depend on the processing

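Leaving out 1 library at a time gave ranges, with the number in brackets from all 4 libraries: 410 to 1101 genes risen in all (616) and 374 to 870 fallen (539). For transcription factors the ranges were 29 to 73 risen (44) and 21 to 58 fallen (44), for receptors and membrane proteins 42 to 111 (62) and 42 to 77 (49), for matrix genes 19 to 62 (30) and 17 to 40 (25), and for metabolic genes 29 to 64 (50) and 30 to 89 (48). The lone library of a genotype is then assumed to vary like the others. The highest total, 1971 called, came without wild-type replicate 1, and the lowest, 795, without mutant replicate 1. The cause was not tested. Without a filter on low counts 1760 genes were called of 19454 tested against 1155 of 16160. Of these 958 rose, 103 of them receptors and membrane proteins, 52 matrix genes and 77 metabolic genes. With the replicate number as a block, 668 genes rose and 573 fell, 1082 of the 1155 calls were kept, and the 136 named genes kept their calls. Same-numbered libraries did not deviate together (correlation -0.05 over 13710 genes). A single correlation over genes cannot exclude pairing of the samples, and the labels give only a replicate number. The other scalings, tests and filters kept the class counts within 1.5 times of those given, and all 136 named genes that had a value kept their direction under each alternative. Some calls ended: with library size alone those of Igfbp5, Igsf3, Il1r2, Mrc1, Vwf and Cyp4f13 (edgeR adjusted p 0.0509 to 0.0912), with the DESeq2 test those of Zfp42 (0.0513), Rxfp3 (0.197) and Il1r2 (0.064), and with DESeq2 size factors or a 1 CPM filter that of Igsf3 (0.0548 and 0.0572). Leaving out 1 library ended 3 to 18 of the named calls. DESeq2 called 608 risen and 543 fallen. Under library size alone 943 were called, with a median log2 fold change of 0.01 over all genes. With 2 pools a genotype, the p-values measure only the spread between pools, and low counts limit precision where a genotype has few reads.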

Other observations

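Several called genes outside the comparisons above had almost no reads in one genotype. They were picked out after their values were seen, and their intervals are exact 95% intervals that cover counting error only. Oxtr, the oxytocin receptor, had 70 counts in the mutant libraries and 2 in wild type, 32.3-fold higher after scaling (8.62 to 272). Pth2r, a receptor of the parathyroid hormone family, had 60 against 2, 27.7-fold higher (7.34 to 234). Kcnj12, an inward rectifier potassium channel, had 38 against 0, at least 11.7-fold higher against a floor of 3 counts over the group. Slc9a2, a sodium-proton exchanger, went the other way with 0 against 31, at least 11.2-fold lower against the same floor. Fosb, an immediate early factor, had 2 against 29, 15.7-fold lower (3.97 to 136), and its call ended without mutant replicate 2 (edgeR adjusted p = 0.151), wild-type replicate 1 (0.0761) or wild-type replicate 2 (0.0527).

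Further called genes were also picked out after their values were seen. Kit, the receptor of stem cell factor, fell from 21.8 to 10.6 CPM (log2 change -1.03, SE 0.12, edgeR adjusted p = 0.000227), and Gfra3, a co-receptor of the GDNF family, fell at 1.37 and 1.34 CPM in the mutant against 3.61 and 3.28 (-1.35). The summed neuron and Schwann cell markers were 162 and 155 CPM in the mutant and 177 and 181 in wild type, and the part of those cells was not tested. Mertk, a receptor for the clearance of dead cells, rose at 94.9 and 87.4 CPM in the mutant libraries and 56.3 and 60.9 in wild type (log2 change 0.64, SE 0.09, edgeR adjusted p = 0.00118), beside macrophage markers of 123 and 116 CPM against 78.3 and 97.9. Gatm, the first enzyme of creatine synthesis, which uses arginine, fell from 11.9 to 4.62 CPM (log2 change -1.37, SE 0.15, edgeR adjusted p = 0.000173), and Srm, spermidine synthase, from 44.7 to 29.2 CPM (log2 change -0.61, SE 0.10, edgeR adjusted p = 0.00315). Pcsk6, a proprotein convertase that processes TGF-beta family ligands, fell at 24.4 and 20.8 CPM in the mutant libraries and 42.2 and 41.3 in wild type (log2 change -0.88, SE 0.11, edgeR adjusted p = 0.000367). Mutant and wild-type libraries did not overlap for any of these 6 genes, a property of 48.9% of all genes tested.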
